A study of Homo sapiens with 9 samples.

Results

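The enzymes described here are those of the pentose phosphate pathway and further producers of NADPH, namely PGLS, PGD, RPIA, RPE, TKT, TALDO1, ME1, IDH1 and NNT. A gene was read from its probe set when the platform's annotation gives that probe set 1 gene symbol, current or earlier, and of several such probe sets the one with the highest mean over all 9 arrays would have been taken. In this way 8 of the 9 genes were measured, each by 1 probe set, out of 22354 genes and 53617 probe sets on the array. The only probe set listed for RPE, the epimerase that turns ribulose 5-phosphate into xylulose 5-phosphate, is also annotated to RPEL1, and no value is given for it.

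The RNA came from MDA-MB-231, an established human line grown from triple-negative breast cancer, after GNE-140, an inhibitor of the lactate dehydrogenase isozymes A, B and C. By the titles and treatment labels, 4 arrays are GNE-140 arrays (GNE-140 1A and 1B of set 1, GNE-140 2A and 2B of set 2) and 5 are controls (control 1A, 1B and 1C of set 1, control 2A and 2B of set 2). GNE-140 was used at 50 µM for the whole series, and the protocol shared by all arrays gives 24 h. The source name contradicts these labels for 6 of the 9 arrays, since it names a Boswellia preparation for all 4 GNE-140 arrays and for both controls of set 2. This conflict was not settled, touches every comparison below, and leaves no array of set 2 free of it. The labels do not say whether the controls received DMSO, the solvent of the stock, nor whether the arrays stand for separate cultures. The p-values therefore rest on the spread from array to array alone, and that spread may be technical.

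The pentose phosphate pathway branches off glycolysis at glucose 6-phosphate. Its oxidative branch makes NADPH, the reducing agent for glutathione, thioredoxin and lipid synthesis, and ends in ribulose 5-phosphate, while the non-oxidative branch interconverts sugars and links the pentoses needed for nucleotides back to glycolysis. Malic enzyme and isocitrate dehydrogenase make NADPH in the cytosol, and the transhydrogenase NNT makes it in the mitochondrial matrix at the expense of the proton gradient. Several of these genes are known targets of NRF2, the transcription factor of the antioxidant response.

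With GNE-140 the transaldolase gene TALDO1 rose and the transhydrogenase gene NNT fell, and the other 6 measured genes did not pass the test. For TALDO1 the log2 fold change was 0.48 (standard error 0.075, 95% interval 0.31 to 0.65), a signal 1.39-fold that of the controls, and for NNT it was -0.74 (standard error 0.074, 95% interval -0.91 to -0.57), 0.599-fold the control signal. The oxidative dehydrogenase gene PGD and the transketolase gene TKT had log2 fold changes of 0.25 and 0.39, and every GNE-140 array lay above every control array of its own set in both genes. The test was limma's on the log2 signals as deposited, with the set as a block, and a gene passed at a Benjamini-Hochberg adjusted p under 0.1 over all 53617 probe sets. At this threshold 1 of the 8 genes was higher and 1 lower, against 0.433% and 0.532% of all probe sets and 0.68% and 1.02% of the 22354 genes (either way, 2.1% of the 23955 probe sets with a signal above the median), and with a fold over 2 and agreement of both sets in direction asked as well none of the 8 was called, against 0.177% of all probe sets. At an unadjusted p under 0.05 stood 5 of the 8 genes (PGD, TKT, TALDO1, ME1 and NNT), against 10.4% of all probe sets. So did 3057 of the 22354 genes. When the 23955 probe sets with a signal above the median were fitted alone, 4088 of them had such a p.

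Some properties of the arrays bear on every value. Array medians lay between 1.32 and 1.36 in set 1 and between 2.27 and 2.31 in set 2 (log2 signal), so the sets do not lie on 1 scale and signals are compared within a set only. Identical values on at least 3 arrays were carried by 43.7% of the probe sets in set 1 and by 0.0336% in set 2, and PGLS, RPIA, ME1 and IDH1 were among those in set 1. Of 6 genes that mark the mesenchymal MDA-MB-231 line, all 6 lay above the 90th percentile of probe sets in both sets, while ESR1, PGR and FOXA1, markers of luminal breast cells, and PTPRC and CD3E, markers of leukocytes, lay below the median. KRT19 and EPCAM of the luminal list lay above the 75th percentile in both sets, and CD68 of the leukocyte list above the 90th. No gene of the luminal, fibroblast or leukocyte lists passed the test (7, 5 and 5 measured), and the median log2 fold changes of these lists were 0.03, -0.04 and -0.01.

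Of the oxidative branch, 6-phosphogluconate dehydrogenase (PGD), which makes NADPH as it releases ribulose 5-phosphate, had separated groups in both sets. Its log2 signal was 5.43 and 5.47 on the GNE-140 arrays of set 1, against 5.28, 5.30 and 5.30 on the controls. In set 2 it was 7.53 and 7.46 with GNE-140, against 7.10 and 7.16 in controls. The arrays with GNE-140 were the higher ones throughout, with GNE-140 above control by 0.16 in set 1 and by 0.37 in set 2. With the set as a block the log2 fold change was 0.25 (standard error 0.063, 95% interval 0.11 to 0.40), which did not pass (adjusted p = 0.189 from limma). PGD did not pass in any of the 9 fits that leave out 1 array (adjusted p = 0.195 to 0.402 from limma). The lactonase gene PGLS, whose enzyme acts just before PGD, had signals of 3.80 and 3.45 in the GNE-140 arrays of set 1, against 3.32, 3.45 and 3.45 in controls, and of 5.26 and 5.11 in those of set 2, against 5.42 and 5.30. GNE-140 lay above control on average in set 1 and below it in set 2, and GNE-140 1B and 2 controls of set 1 carried the same value. PGLS had a log2 fold change of 0.04 (95% interval -0.21 to 0.29, adjusted p = 0.924 from limma).

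In the non-oxidative branch, TALDO1, which transfers the dihydroxyacetone unit between sugar phosphates, was separated in both sets. The log2 signal of TALDO1 was 4.65 and 4.57 with GNE-140 in set 1, against 4.24, 4.09 and 4.21 in controls, and 6.14 and 6.06 with GNE-140 in set 2, against 5.69 and 5.42 in controls. Every GNE-140 array was above every control array of its set, and the differences of the means were 0.43 in set 1 and 0.54 in set 2. TALDO1 passed with an adjusted p of 0.0405 from limma and ranked 197th of 22354 genes by the size of its moderated t. The call was lost without control 1B, GNE-140 1A, GNE-140 2A or GNE-140 2B (adjusted p = 0.104, 0.1001, 0.140 and 0.133 from limma) and kept in the other 5 such fits.

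TKT, the transketolase that moves the glycolaldehyde unit with thiamine diphosphate as cofactor, showed the same order of the groups. Its log2 signal was 6.61 and 6.54 with GNE-140 in set 1, against 6.13, 6.42 and 6.31 in controls, and 9.18 and 8.9998 with GNE-140 in set 2, against 8.54 and 8.60 in controls. The groups did not overlap in either set, though GNE-140 1B and control 1B lay only a little apart. The log2 fold change was 0.39 (standard error 0.086, 95% interval 0.19 to 0.59), with an adjusted p of 0.132 from limma. TKT passed when probe sets of low signal were left out before adjustment (adjusted p = 0.0693 from limma) and with a trended, robust prior variance (adjusted p = 0.0973 from limma). The ribose 5-phosphate isomerase gene RPIA had 4.97 and 4.91 with GNE-140 in set 1, against 4.91, 4.91 and 4.67 in controls, and 5.57 and 5.55 with GNE-140 in set 2, against 5.52 and 5.46 in controls. GNE-140 1B and 2 controls shared 1 value, so the groups met in set 1. RPIA had a log2 fold change of 0.09 (95% interval -0.07 to 0.25, adjusted p = 0.680 from limma).

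**Figure D1:**
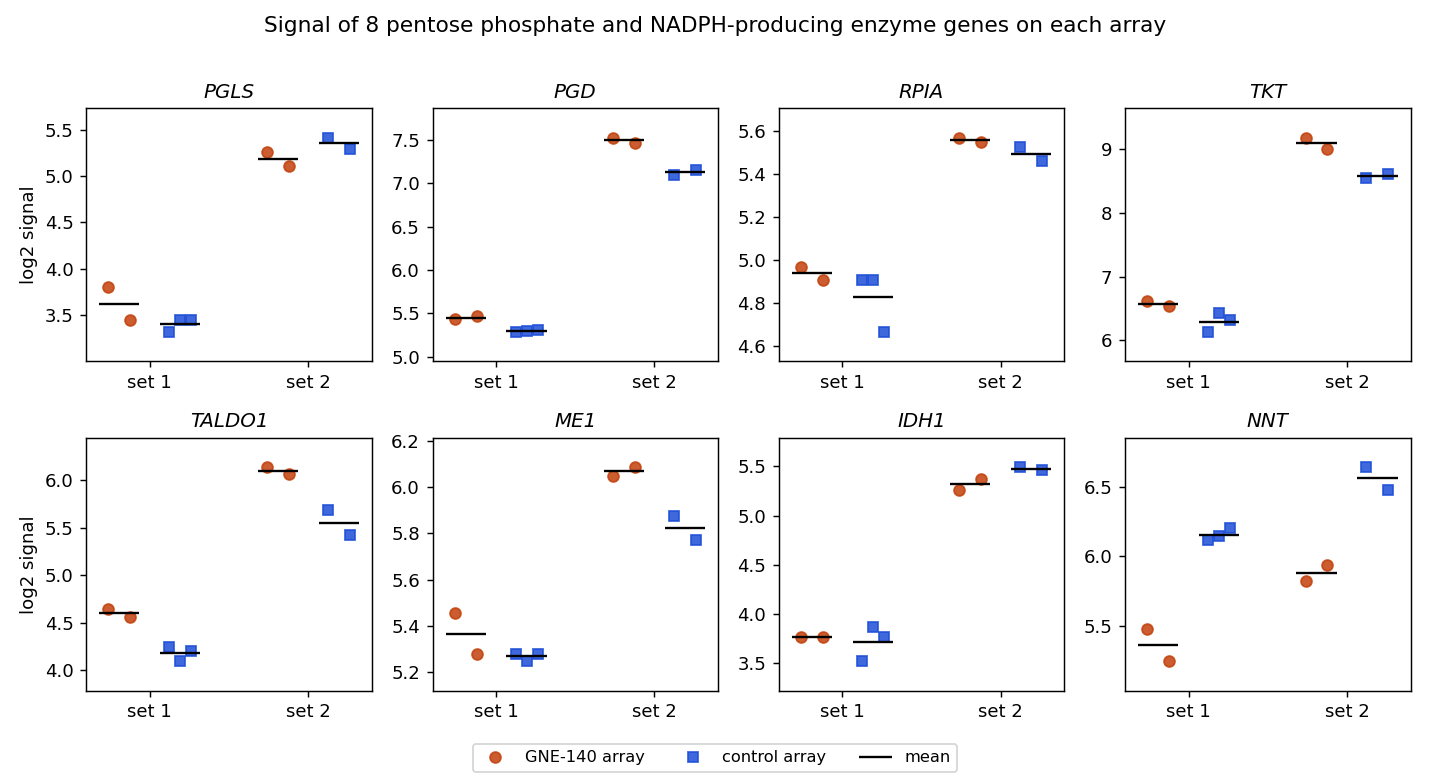
Log2 signal of the 8 measured genes, 1 panel a gene, with GNE-140 arrays as circles left of the control arrays as squares in set 1 and set 2, and the mean of each group as a line (each panel has its own vertical scale, which does not start at 0). PGD, TKT and TALDO1 lie higher and NNT lower in every GNE-140 array than in every control array of the same set.

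Among the other NADPH producers, NNT gave the clearest separation of all 8 genes. Its log2 signal was 5.48 and 5.25 with GNE-140 in set 1, against 6.12, 6.14 and 6.20 in controls. In set 2 it was 5.83 and 5.94 with GNE-140, against 6.64 and 6.48 in controls. Every GNE-140 array lay below every control array of its own set. GNE-140 was lower by 0.79 in set 1 and by 0.68 in set 2. NNT passed with an adjusted p of 0.0097 from limma, ranked 30th of 22354 genes by the size of its moderated t, and passed in all 9 fits that leave out 1 array (adjusted p = 0.0178 to 0.0549 from limma).

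ME1, the cytosolic malic enzyme, turns malate into pyruvate and makes NADPH. It had log2 signals of 5.45 and 5.28 with GNE-140 in set 1, against 5.28, 5.25 and 5.28 in controls, and of 6.05 and 6.09 with GNE-140 in set 2, against 5.88 and 5.77 in controls. GNE-140 1B had exactly the value of 2 controls, while in set 2 the groups were apart. The log2 fold change of ME1 was 0.17 (standard error 0.065, 95% interval 0.02 to 0.31), which did not pass (adjusted p = 0.435 from limma). IDH1, the cytosolic isocitrate dehydrogenase, had 3.77 on both GNE-140 arrays of set 1, against 3.52, 3.87 and 3.77 in controls, and 5.26 and 5.37 on those of set 2, against 5.49 and 5.46 in controls. Its GNE-140 values fell inside the control range in set 1 and below it in set 2. IDH1 had a log2 fold change of -0.05 (95% interval -0.24 to 0.15, adjusted p = 0.889 from limma).

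Across the 8 genes, PGD, RPIA, TKT, TALDO1 and ME1 were higher and NNT was lower on average in both sets, and PGLS and IDH1 differed in sign between the sets. In 3 of the 8, PGD, TKT and TALDO1, GNE-140 lay above control without overlap in both sets, against 2.72% of all probe sets and 5.39% of the 23955 with a signal above the median, and in 1, NNT, below it, against 2.14% and 3.66%. In set 2 taken by itself the groups were apart in all 8, with 5 higher and 3 lower, where 22.7% and 18.6% of all probe sets were so with 2 arrays a group. Within set 1 or set 2 alone none of the 8 had an adjusted p under 0.1 from limma, and neither did any other probe set (0% in each), while at an unadjusted p under 0.05 stood 3 of the 8 in set 1 (PGD, TALDO1 and NNT), against 4.6% of all probe sets, and 4 in set 2 (these and TKT), against 10.4%. With the arrays compared as 2 groups without regard to the set, none of the 8 and no other probe set passed (0%). NNT alone of the 8 had an unadjusted p under 0.05 there, against 1.12% of all probe sets, and the difference in scale between the sets enters the spread of that comparison. The response did not differ between the sets past the threshold for any of the 8 by the interaction of set and treatment (adjusted p = 0.617 to 0.959 from limma, lowest unadjusted p = 0.064 for PGLS). Of all probe sets 0.0541% passed and 8.36% had an unadjusted p under 0.05, which none of the 8 had. The intervals of that difference, set 2 minus set 1, were wide, at -0.82 to 0.03 for PGLS, -0.02 to 0.45 for PGD, -0.23 to 0.47 for TALDO1 and -0.23 to 0.46 for NNT.

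**Figure D2:**
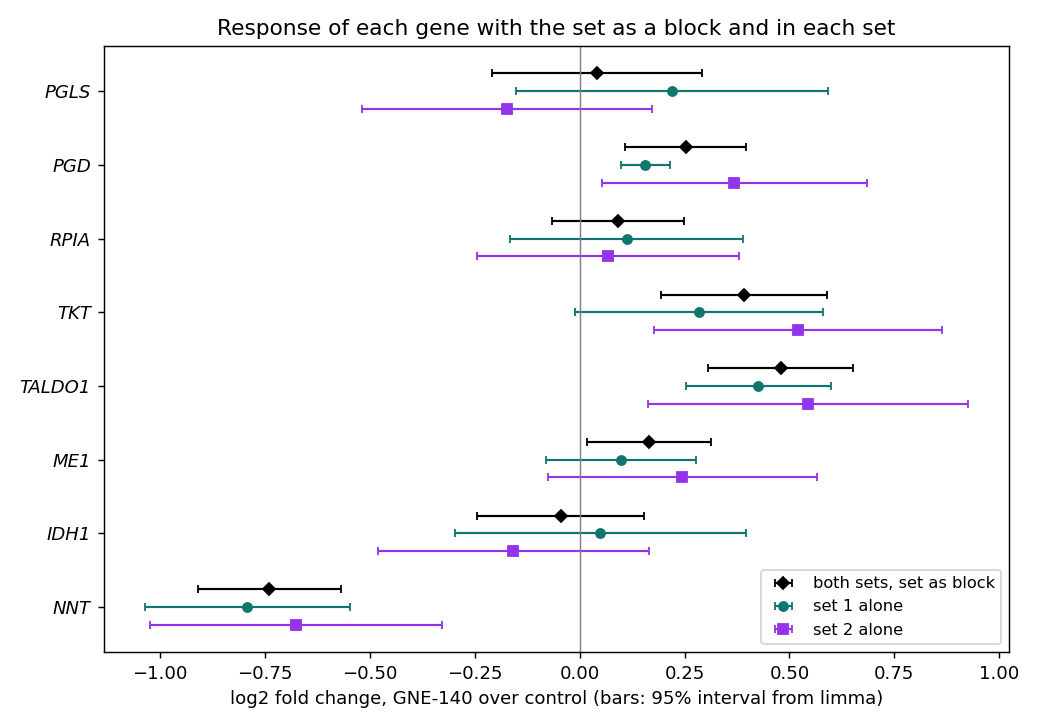
Log2 fold change of GNE-140 over control for each of the 8 genes, with the set as a block (diamonds), in set 1 alone (circles) and in set 2 alone (squares), and bars for the 95% interval. TALDO1 at 0.48 and NNT at -0.74 passed with the set as a block, and PGLS and IDH1 lie on opposite sides of 0 in set 1 and set 2.

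With the difference between the groups left in, some of the genes were correlated over the 9 arrays. After the mean of each set was removed, PGD, TKT, TALDO1 and ME1, a group chosen after their values were seen, correlated pairwise with r = 0.78 to 0.936 over the 9 arrays, and each of the 4 with NNT with r = -0.886 to -0.662. RPIA lay between, with r = 0.406 to 0.531 with each of the 4 and r = -0.544 with NNT. IDH1 correlated with each of the 4 with r = -0.396 to -0.119 and PGLS with r = -0.148 to 0.142. The arrays share treatment and set, and these values hold the difference between the groups. The 4 genes were higher and NNT was lower with GNE-140, so that difference enters both the sign and the size of their correlations. Correlation within a group was not computed. Among 11455 genes of sufficient signal, the 5 whose centred values were most like those of NNT over the 9 arrays were CENPF, a protein of the centromere (r = 0.99), the glutamine carrier gene SLC1A5 (r = 0.988), PRC1, which bundles microtubules in dividing cells (r = 0.986), NUDT21, a subunit of a 3′ end processing factor (r = 0.985), and the centromere gene CENPI (r = 0.984). Of these, CENPF, SLC1A5, PRC1 and CENPI passed the test themselves, with log2 fold changes of -1.21, -0.34, -1.07 and -1.38, and NUDT21 did not (-0.24, adjusted p = 0.166 from limma).

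The sequences before the start sites are shown for the 2 genes that passed and for 2 that hold the core of the antioxidant response element, the site to which NRF2 binds with small MAF proteins. The core was searched as TGACNNNGC on both strands, where N is any base, in the 250 bases before each start. It was found for 4 of the 9 genes (PGD, RPE, ME1 and IDH1, the last before 1 of 2 starts), against 10.9% of 35116 promoters and 13.2% of 27305 genes. It was not found for PGLS, RPIA, TKT, TALDO1 or NNT, which says only that these letters are not in this window. The sequences are those of RefSeq on GRCh38.p14, read 5′ to 3′ along the gene, and end at the base before the start. Capitals mark the core.
PGD (chr1:10398814-10399063, plus strand): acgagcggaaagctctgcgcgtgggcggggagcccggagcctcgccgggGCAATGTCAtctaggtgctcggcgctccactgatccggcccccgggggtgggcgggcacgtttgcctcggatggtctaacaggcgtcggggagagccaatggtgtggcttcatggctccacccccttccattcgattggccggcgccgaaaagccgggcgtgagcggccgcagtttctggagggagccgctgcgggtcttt
ME1 (chr6:83431052-83431301, minus strand): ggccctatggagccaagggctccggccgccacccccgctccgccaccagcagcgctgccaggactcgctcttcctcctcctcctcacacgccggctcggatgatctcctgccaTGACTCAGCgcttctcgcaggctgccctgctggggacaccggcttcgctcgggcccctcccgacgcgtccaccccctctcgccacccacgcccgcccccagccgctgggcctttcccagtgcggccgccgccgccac
TALDO1 (chr11:747214-747463, plus strand): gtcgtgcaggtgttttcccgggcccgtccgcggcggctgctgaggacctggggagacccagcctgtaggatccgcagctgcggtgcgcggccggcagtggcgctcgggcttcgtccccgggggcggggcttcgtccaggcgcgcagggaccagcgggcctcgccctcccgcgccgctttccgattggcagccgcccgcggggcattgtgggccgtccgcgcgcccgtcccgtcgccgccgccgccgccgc
NNT (chr5:43602425-43602674, plus strand, before the more upstream of 2 starts): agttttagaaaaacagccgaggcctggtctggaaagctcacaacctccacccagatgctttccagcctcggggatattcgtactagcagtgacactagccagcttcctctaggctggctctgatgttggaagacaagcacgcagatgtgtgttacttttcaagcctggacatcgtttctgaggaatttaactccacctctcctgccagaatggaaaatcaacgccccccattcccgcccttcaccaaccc
The match of PGD reads GCAATGTCA, on the reverse strand, and begins 201 bases before the start. That of ME1 reads TGACTCAGC, on the forward strand, and begins 137 bases before it. Of the measured genes with a match, PGD, ME1 and IDH1 had log2 fold changes of 0.25, 0.17 and -0.05. Of those with none, PGLS, RPIA, TKT, TALDO1 and NNT had 0.04, 0.09, 0.39, 0.48 and -0.74.

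The wider pathway was taken as 6 lists of 49 genes, of which 41 had a probe set of their own and 8 were not analysed here. Over all 41, 3 rose, 2 fell and 36 did not pass, where 152 of all 22354 genes rose (0.68%) and 228 fell (1.02%), with a median log2 fold change of 0.04 beside 0.01 for all genes. TXNRD1, the thioredoxin reductase of the cytosol, and NQO1, a quinone reductase, rose, and both use NADPH. The log2 signal of TXNRD1 was 7.25 and 7.28 with GNE-140 in set 1, against 6.60, 6.58 and 6.47 in controls, and 7.87 and 7.99 with GNE-140 in set 2, against 7.25 and 7.18 in controls. The groups lay far apart in both sets, and the fitted difference was 0.72 on the log2 scale (standard error 0.058, adjusted p = 0.0039 from limma). NQO1 had 6.80 and 6.78 with GNE-140 in set 1, against 5.41, 5.999 and 5.65 in controls, and 8.70 and 8.66 with GNE-140 in set 2, against 7.90 and 7.88 in controls. Its groups were also apart, by a fitted 0.96 on the log2 scale (standard error 0.12, adjusted p = 0.021 from limma), and both genes passed in all 9 fits that leave out 1 array. Of 15 measured NADPH users these 2 rose and none fell, beside the same 0.68% and 1.02% of all genes, and the median was 0.09. The glutathione reductase gene GSR, which also spends NADPH, had a log2 fold change of 0.29 (adjusted p = 0.289 from limma).

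MTHFD1, a cytosolic enzyme of one-carbon metabolism that can make NADPH from folate-bound carbon, fell. Its log2 signal was 6.51 and 6.38 with GNE-140 in set 1, against 7.00, 7.13 and 6.79 in controls, and 7.43 and 7.57 with GNE-140 in set 2, against 8.03 and 7.94 in controls. Every GNE-140 array lay below every control array of its set, and the log2 fold change was -0.51 (standard error 0.082, adjusted p = 0.044 from limma). Of the 9 fits with 1 array left out, MTHFD1 passed in 3, those without control 1B, control 1C or GNE-140 1A (adjusted p = 0.0528 to 0.150 from limma over the 9). Of the 8 measured genes of this list it was the only one to pass, where 0.68% of all genes rose and 1.02% fell. The median of the list was -0.03.

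Of 4 measured genes of pentose entry and use, which feed or draw on the pathway's pentoses, none passed, and their median was -0.29. DERA, the aldolase that breaks down deoxyribose phosphate, had a log2 fold change of -0.39 (adjusted p = 0.222 from limma), with GNE-140 below control without overlap in both sets, and PGM2, which acts on pentose and hexose phosphates, of -0.31 (adjusted p = 0.474 from limma). Of 3 measured genes of the oxidative branch none passed (median 0.08), with H6PD, the dehydrogenase of the endoplasmic reticulum, at 0.08 beside PGLS and PGD. Of 5 in the non-oxidative branch TALDO1 rose (median 0.09), and of 6 malic enzymes, isocitrate dehydrogenases and the transhydrogenase NNT fell (median -0.06). Beside each of these counts stand 0.68% of all 22354 genes that rose and 1.02% that fell.

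**Figure D3:**
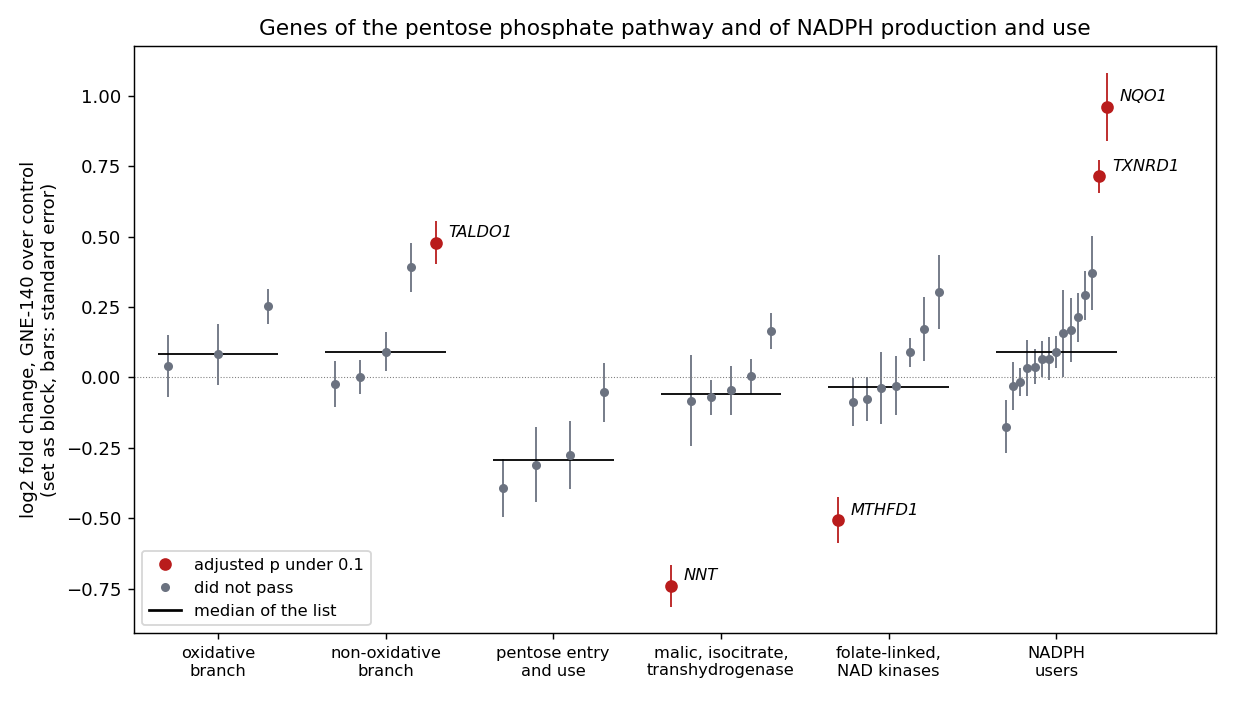
Log2 fold change of GNE-140 over control, with the set as a block and bars for the standard error, for the 41 measured genes of the 6 lists, with the median of each list as a line. The 5 genes with an adjusted p under 0.1 are named, TALDO1, TXNRD1 and NQO1 above 0 and NNT and MTHFD1 below it.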

How the data were processed

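Each of 9 GeneChip Human Gene 2.1 ST arrays gave a column of log2 signals for 53617 probe sets, deposited by the authors after processing with Affymetrix software (Expression Console, Transcriptome Analysis Console). Their versions, summarization, background correction and normalization are not stated in the paper or the labels, and the scale was read from the values. Arrays were grouped by title, and the paper's text gives other numbers per set. It names 2 controls and 3 GNE-140 arrays for set 1, and 3 controls and 2 GNE-140 arrays for set 2. By title, set 1 holds the reverse, 3 controls and 2 GNE-140 arrays, and set 2 holds 2 of each. This difference was not settled. Symbols are those of the platform's annotation (23866 probe sets with 1 symbol, 1852 with several, 27899 with none), updated through RefSeq. The model of limma 3.58.1 in R 4.3.3 had terms for set and treatment, followed by eBayes, and p-values were adjusted by Benjamini-Hochberg over all probe sets. The threshold of 0.1 was the study's, and intervals are at 95%. The response of set 2 minus that of set 1 was tested as an interaction. All measured genes of the group are named, and of the wider lists those past the threshold or, where none passed, the 2 with the largest change (GSR was named after its value was seen). The members and lists were chosen with earlier results of these data known. The procedure was checked on simulated arrays. The number of arrays limits the precision. The letters in the titles were not used as pairs in the main model. Deviations of same-lettered arrays from their group means correlated with r = -0.152 to 0.0298 over all probe sets. These values cannot settle whether the letters pair the arrays. With 2 arrays a group in set 2, both letters give the same value there by construction. Alternatives were no set term, 1 set alone, quantile normalization, median centring, a filter on low signal, another prior variance, a stricter threshold, a block by letter and leaving out each array.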

Additional observations from a re-analysis of the deposited data

Results flagged for a closer look

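Among the 8 genes, an array stood apart from the others of its group in 2 of 16 groups of arrays, after the fitted difference between the sets had been removed. For ME1 in controls, control 2B was the lowest, with a gap to its neighbour of 0.749 of the range of the 5 arrays. For IDH1 in controls, control 1A was the lowest, with a gap of 0.713 of the range. The limit used flags about 1 in 20 groups of independent, normally distributed values. That rate may not hold here, since a fitted difference between the sets was removed first. For ME1, 2 controls of set 1 also carried the same value. Without control 2B the log2 fold change of ME1 was 0.13 (adjusted p = 0.622 from limma), and without control 1A that of IDH1 was -0.10 (adjusted p = 0.658 from limma).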

How the results depend on the processing

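Of 53617 probe sets 517 had an adjusted p under 0.1 in the model with set and treatment, and of the 8 genes 2. Without the set term, in set 1 alone and in set 2 alone 0 probe sets and 0 of the 8 genes passed, and without the set term 0 of the list genes in place of 5. With a filter on low signal 929 probe sets passed among 23955, and at an adjusted p under 0.05 304. Leaving out 1 array gave 155 to 528 probe sets (155 without GNE-140 2B, 157 without control 2A, 185 without GNE-140 2A, 202 without control 2B and 336 without control 1B), 1 to 2 of the 8 genes and 3 to 5 list genes (3 without GNE-140 2A or 2B), and 0 of the 8 differed between the sets in any such fit. With the letter in the title as a replicate block, 0 probe sets, 0 of the 8 genes and 0 list genes passed. This block drops control 1C. At an unadjusted p under 0.05 from limma stood 4648 probe sets and 4 of the 8 genes. Whether the letters pair the arrays was not settled. TALDO1 and NNT kept their direction in every alternative. The direction turned for PGLS in set 2 alone (-0.17) and among the fits that leave out 1 array (-0.080 without GNE-140 1A, range -0.08 to 0.11), and for IDH1 without the set term (0.12) and in set 1 alone (0.049), where the 95% interval held 0 with the set as a block. Of 144 values of single genes under an alternative, 126 stayed on their side of the threshold and kept their direction. Both counts include, for each gene, the mean of its probe sets, which is the main value since each gene has 1. A gene that did not pass in the main model counts as the same wherever it again did not pass. TALDO1 lost its call in 8 alternatives and kept it in 10, and NNT lost it in 4 and kept it in 14. The causes were not tested.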

Other observations

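The genes most like TALDO1 were looked up after its values had been seen, by the measure used for NNT. Over the 9 arrays, with the mean of each set removed, the 5 of 11455 genes with the highest correlation were RPSAP52 (r = 0.986), the cystine carrier gene SLC7A11 (r = 0.975), EID3 (r = 0.975), the cell cycle inhibitor gene CDKN1A (r = 0.968) and SERTAD1 (r = 0.967). These 5 had log2 fold changes of 0.62, 1.25, 0.89, 0.81 and 0.90 and passed with adjusted p = 0.042, 0.0022, 0.037, 0.015 and 0.0097 from limma. The correlation holds the difference between the groups and is given as a description.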
